A study of Rattus norvegicus with 12 samples.

Results

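The genes described here encode 7 secreted proteins that defend or protect surface tissues: the beta-defensins Defb14, Defb4 and Defb1, the protease inhibitor Slpi, the lipocalin Lcn2, the chitinase-like protein Chi3l1 and the chaperone Clu. They were taken by gene symbol as a fixed list of 7 of the 30452 genes in the deposited table, and all 7 passed the filter for testing. The list was drawn up with earlier results of these data known. Counts of its called genes beside the background are therefore descriptions. RNA sequencing was done on 12 rat cornea libraries, with 4 groups of 3, labelled SF/HA-HEP-PAM, SF/HA, Alkali-burned and Control. The series concerns a silk-based patch for the ocular surface meant to take up inflammatory mediators. No strain, age or time is labelled, the letters of both patch names (SF, HA, HEP, PAM) are left unexplained, and whether those corneas had been burned is not stated. Nothing in the labels marks replicates as separate animals, so the spread behind each p-value may be technical.

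Beta-defensins are small cationic peptides that epithelia secrete and that disrupt microbial membranes; some are made at rest and others after injury or infection, when interleukin-1, interleukin-17 and bacterial products act on the cell. Lipocalin 2 binds siderophores and so withholds iron from bacteria, and Slpi blocks neutrophil elastase and related proteases while also carrying antimicrobial activity. Chi3l1 binds chitin without cutting it and is secreted by macrophages, stromal cells and epithelium under inflammation. Clusterin is an extracellular chaperone that holds unfolded proteins in solution and is abundant in tears and ocular surface epithelium.

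Promoter sequence, 250 bases before to 50 bases after the annotated start, was at hand in RefSeq (build GRCr8) for 2 of the 7 genes, Lcn2 and Chi3l1. Both genes rose over Control in SF/HA-HEP-PAM corneas (below), and the windows are shown for the NF-kB and C/EBP letters, since factors of both kinds act on genes of this class. Capitals mark matches to the motifs searched on both strands: an NF-kB motif GGGANNNNCC, a C/EBP motif TTGCNNAA, a STAT motif TTCNNNGAA and a TATA motif TATAAA. The Lcn2 window is chr3:36081731-36082030 on the minus strand and the Chi3l1 window is chr13:48193589-48193888 on the plus strand, both written 5′ to 3′.
Lcn2: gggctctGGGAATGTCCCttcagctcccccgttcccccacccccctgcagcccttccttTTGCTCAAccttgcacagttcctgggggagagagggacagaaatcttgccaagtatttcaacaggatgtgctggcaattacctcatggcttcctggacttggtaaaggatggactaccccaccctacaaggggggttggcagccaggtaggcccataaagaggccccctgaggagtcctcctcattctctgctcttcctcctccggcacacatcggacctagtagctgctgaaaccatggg
Chi3l1: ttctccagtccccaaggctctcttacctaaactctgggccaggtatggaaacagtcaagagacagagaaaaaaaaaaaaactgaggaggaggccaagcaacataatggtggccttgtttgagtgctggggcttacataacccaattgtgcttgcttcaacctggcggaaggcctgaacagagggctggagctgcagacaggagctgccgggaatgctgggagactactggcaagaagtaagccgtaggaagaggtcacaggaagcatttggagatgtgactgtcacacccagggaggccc

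In the Lcn2 window the NF-kB letters matched on the plus strand from 243 to 234 bases before the start and, overlapping by all but 1 base, on the minus strand from 242 to 233. The C/EBP letters matched from 191 to 184 bases before the start. None of the 4 motifs matched in the Chi3l1 window. Of 33469 rat promoters of the same length, 19.3% held the NF-kB letters, 10.6% the C/EBP letters, 8.87% the STAT letters and 14.2% the TATA letters. A match describes these letters and is not evidence of a binding site.

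The libraries held 1245606 to 2117399 reads on genes in SF/HA-HEP-PAM, 499061 to 957696 in SF/HA, 1173159 to 1265298 in Alkali-burned and 486264 to 1015788 in Control. Corneal epithelium markers were present in all 12 libraries, at 38150.1 to 40632 RPM (reads per 1000000 reads on genes) in SF/HA-HEP-PAM, 27154 to 36356 in SF/HA, 19879 to 29675 in Alkali-burned and 34343 to 58861 in Control. A set of 3 libraries stood apart as the highest of their group in S100a8 and S100a9, calcium-binding proteins of neutrophils and stressed epithelium: SF/HA-HEP-PAM replicate 3 (19827 RPM for the pair, against 2114 and 3183 in its group), SF/HA replicate 2 (17198, against 1666 and 2768) and Alkali-burned replicate 1 (6641, against 1280.3 and 1451). Control libraries had 342 to 391. Control replicate 1 stood apart with 87697 RPM on stromal markers, against 33833 and 37935 in the other Control libraries. In these bulk samples fewer cells of a type and less RNA per cell cannot be told apart. FPKM here was computed over whole gene spans with their introns, so levels are compared between libraries for 1 gene and never between genes.

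Against Control corneas, 4 of the 7 genes rose after the alkali burn: Defb14 15.8-fold, Chi3l1 7.06-fold, Clu 6.87-fold and Slpi 4.69-fold, folds being taken back from the log2(FPKM + 1) scale; 4.42% of all tested genes were called higher in that comparison. The same 4 rose in SF/HA corneas (background 3.19%), and in SF/HA-HEP-PAM corneas those 4 and Lcn2 rose (background 9.21%). Defb4 had almost no reads in Control and was higher in every library of the other groups without being called, and Defb1 was the one gene whose mean was lower outside Control. No gene of the 7 was called between either patch group and the burned corneas. Chi3l1 fell in SF/HA-HEP-PAM against SF/HA (background 0.524%). Calling required, in limma, an adjusted p (Benjamini-Hochberg over the 6112 genes tested) below 0.05 together with a log2 difference beyond 1 in either direction. The background is the share of all tested genes called in the same direction.

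**Figure D1:**
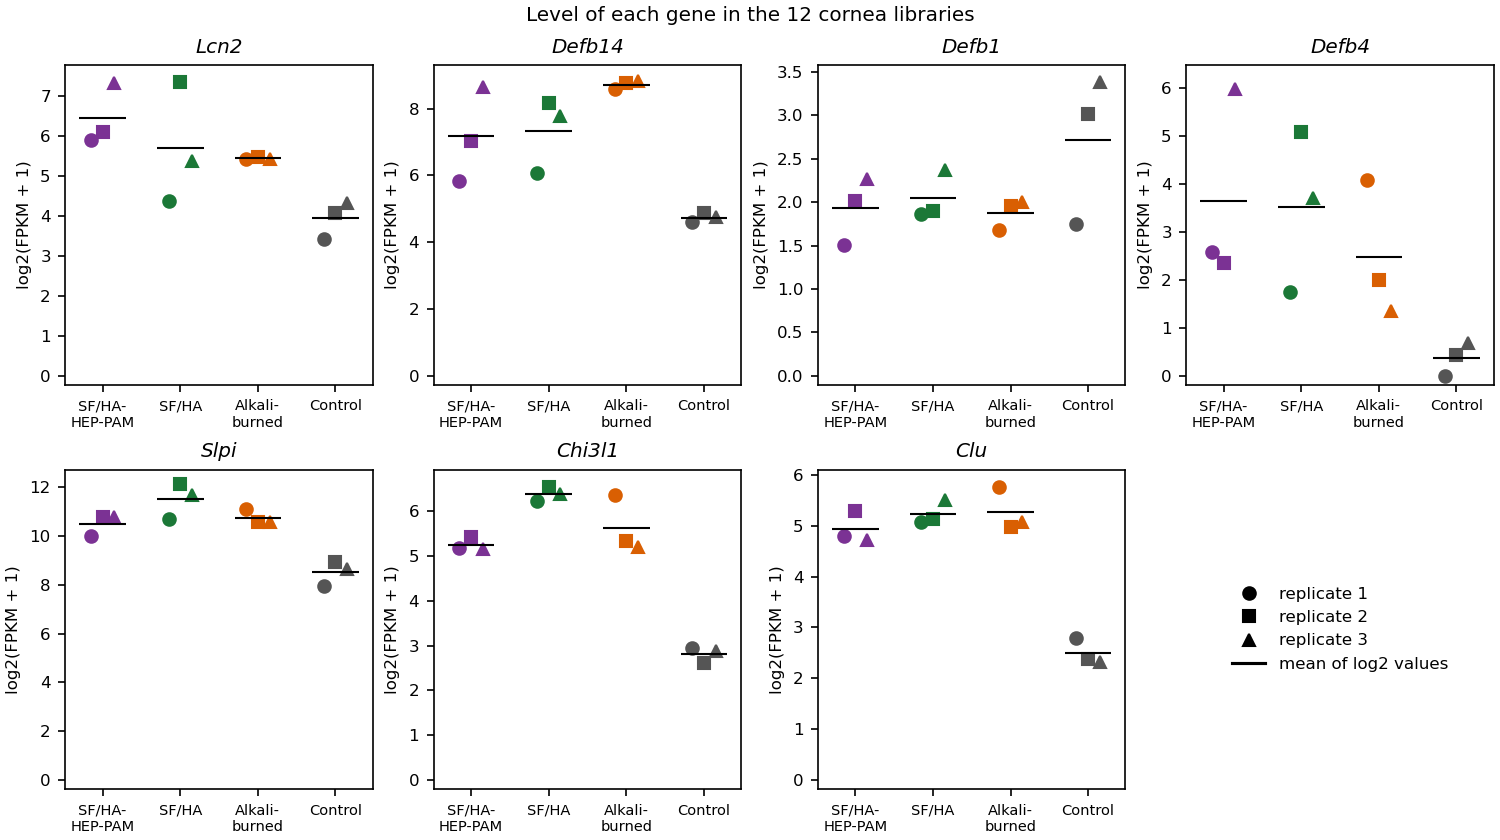
Level of each gene, log2(FPKM + 1), in the 3 libraries of SF/HA-HEP-PAM, SF/HA, Alkali-burned and Control corneas; points are libraries, shaped by replicate number, and bars are means of the log2 values. Defb14, Slpi, Chi3l1, Clu, Lcn2 and Defb4 lie above every Control library in every other library, and Defb1 overlaps Control.

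Defb14, the rat counterpart of an inducible human beta-defensin, had 55.5, 129.8 and 402 FPKM in the SF/HA-HEP-PAM libraries, 65.8, 285 and 219 FPKM in SF/HA, 381, 433 and 451 FPKM in Alkali-burned and 23.1, 28.1 and 26.1 FPKM in Control. The burned and Control libraries were each tight and far apart, while both patch groups were spread out between them. The mean was 196 ± 182 FPKM in SF/HA-HEP-PAM, 190.1 ± 113 in SF/HA, 422 ± 36.1 in Alkali-burned and 25.8 ± 2.54 in Control (SD, n = 3 each). Against Control, Defb14 rose by a log2 difference of 3.98 after the burn (SE 0.66, limma adjusted p = 0.00634), by 2.60 in SF/HA (SE 0.66, adjusted p = 0.0449) and by 2.43 in SF/HA-HEP-PAM (SE 0.66, adjusted p = 0.0252). All 3 SF/HA libraries lay under all burned ones, with a log2 difference of -1.38 (95% interval -2.85 to 0.08, adjusted p = 0.325) that was not called. The SF/HA-HEP-PAM libraries overlapped the burned ones through replicate 3 alone, and the difference of -1.55 (95% interval -3.02 to -0.08, adjusted p = 0.121) was not called. The fit that left out SF/HA-HEP-PAM replicate 3 gave -2.29 and a call (adjusted p = 0.0248). The SF/HA rise over Control was not called in 9 of 12 fits that each left out 1 library, with adjusted p up to 0.128, and kept its call without SF/HA-HEP-PAM replicate 1 or 3 or SF/HA replicate 1. The SF/HA-HEP-PAM rise over Control was not called without SF/HA-HEP-PAM replicate 2 or 3 or any 1 of the Control libraries, with adjusted p up to 0.0757; it was 1.69 without SF/HA-HEP-PAM replicate 3.

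Defb4, a beta-defensin that epithelia make under inflammation, had 23, 28 and 250 reads in SF/HA-HEP-PAM, 5, 53 and 37 in SF/HA, 60, 12 and 6 in Alkali-burned and 0, 1 and 2 in Control. As FPKM these were 5.03, 4.14 and 62.8 in SF/HA-HEP-PAM, 2.34, 33.2 and 12.1 in SF/HA, 16, 2.97 and 1.54 in Alkali-burned and 0, 0.353 and 0.616 in Control, where 0 reads in replicate 1 allows up to 1.93 FPKM. Every library outside Control was above every Control library. The highest library was 15.2 times the lowest in SF/HA-HEP-PAM, 14.2 times in SF/HA and 10.4 times in Alkali-burned. Per read sequenced, with the libraries of each group pooled, Defb4 was 50 times Control in SF/HA-HEP-PAM (95% exact interval 16.9 to 244). It was 35.6 times in SF/HA (11.8 to 176) and 17 times in Alkali-burned (5.6 to 84.2), over 3 reads in all of Control. These intervals cover counting error only and leave out the spread between libraries. Replicate 3 gave 250 of the 301 pooled SF/HA-HEP-PAM reads, at 201 RPM against 16.1 and 13.2 in the others of its group. On the log2(FPKM + 1) scale, where the size depends on the pseudocount, no difference from Control was called: 3.27 in SF/HA-HEP-PAM (SE 1.09, limma adjusted p = 0.0564), 3.14 in SF/HA (SE 1.09, adjusted p = 0.121) and 2.10 in Alkali-burned (SE 1.09, adjusted p = 0.275). The SF/HA-HEP-PAM difference was called without SF/HA replicate 1 (adjusted p = 0.0442) or SF/HA replicate 2 (adjusted p = 0.0458). The filter on low values was passed through libraries outside Control.

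Defb1, a beta-defensin that human epithelia make at rest, had 1.85, 3.04 and 3.81 FPKM in SF/HA-HEP-PAM, 2.64, 2.72 and 4.18 FPKM in SF/HA, 2.20, 2.89 and 3.01 FPKM in Alkali-burned and 2.37, 7.12 and 9.42 FPKM in Control. Control replicate 1, the library high in stromal markers, lay within the range of the other groups, and the other Control libraries lay above all 9. The log2 differences from Control were -0.79 in SF/HA-HEP-PAM (SE 0.37, limma adjusted p = 0.158), -0.67 in SF/HA (SE 0.37, adjusted p = 0.334) and -0.84 in Alkali-burned (SE 0.37, adjusted p = 0.203), none of them called. Without Control replicate 1 all were called, at -1.27 in SF/HA-HEP-PAM (adjusted p = 0.00833), -1.16 in SF/HA (adjusted p = 0.0216) and -1.32 in Alkali-burned (adjusted p = 0.0112). With library weights and all 12 libraries kept they were also called, at -1.18 in SF/HA-HEP-PAM (adjusted p = 0.00667), -1.03 in SF/HA (adjusted p = 0.0449) and -1.18 in Alkali-burned (adjusted p = 0.00733), and voom on recovered reads called SF/HA-HEP-PAM (-1.08, adjusted p = 0.0428). Epithelial markers were also lower in Control replicate 1, 34343 RPM against 58861 and 58713 in the other Control libraries, and their part in the Defb1 values was not tested.

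The 3 defensins lie on chromosome 16 of build mRatBN7.2, all on the minus strand: Defb1 (ENSRNOG00000013768) from 70298863 to 70313604, Defb4 (ENSRNOG00000013939) from 70650472 to 70653665 and Defb14 (ENSRNOG00000032304) from 70663333 to 70666540. Defb4 and Defb14 are 9667 bases apart. The 368 kb from Defb1 to Defb14 hold 21 annotated genes, of which 11 had 0 reads in all 12 libraries and 5 had at least 10 reads in all: Defb1 with 706, Defb52 with 31, Defb5 with 307, Defb4 with 477 and Defb14 with 9169. The alpha-defensin genes of the stretch, which neutrophils and gut cells use, had at most 1 read each. How reads that match several defensins were counted is not given in the sources used here.

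Defb5, between Defb52 and Defb4, had 6, 26 and 56 reads in SF/HA-HEP-PAM, 1, 15 and 9 in SF/HA, 16, 83 and 91 in Alkali-burned and 0, 1 and 3 in Control. It rose after the burn by a log2 difference of 3.65 (SE 0.91, limma adjusted p = 0.0331), and its differences from the burned corneas were -1.41 in SF/HA-HEP-PAM (adjusted p = 0.304) and -1.95 in SF/HA (adjusted p = 0.318), not called. Within the burned group Defb5 was lowest in replicate 1, the library in which Defb4 was highest. Of 37 other alpha- and beta-defensin genes in the table, 8 had any read and Defb5 alone was tested.

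**Figure D2:**
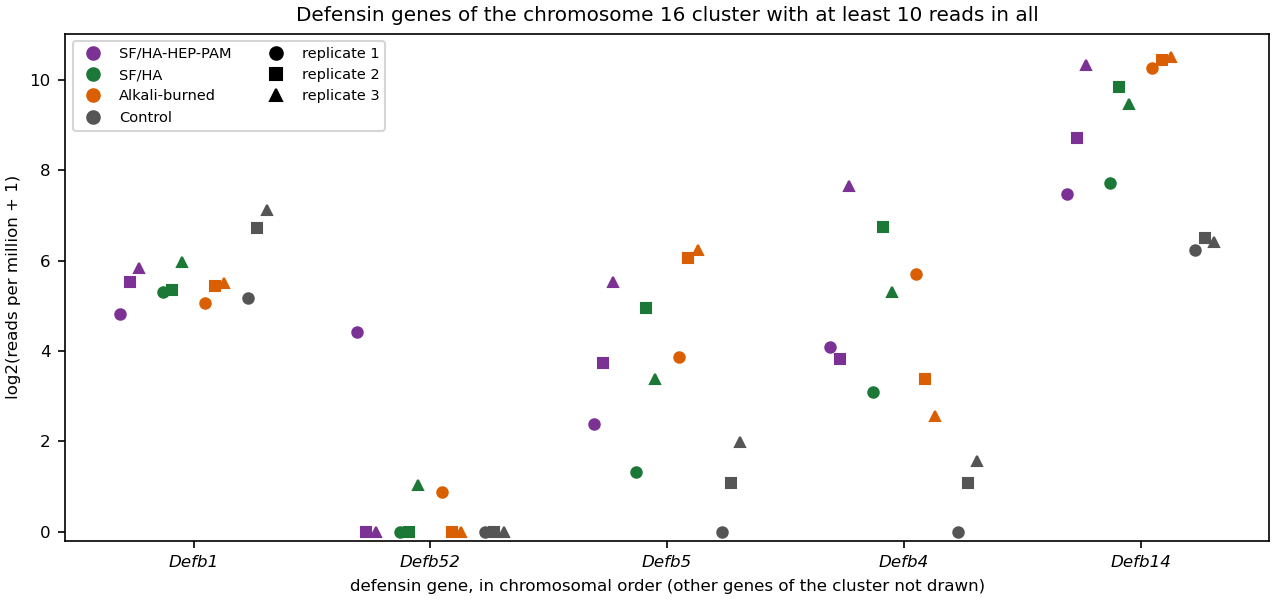
RPM, as log2(RPM + 1), for the 5 genes of the chromosome 16 defensin stretch with at least 10 reads in all, in chromosomal order; colours are groups and shapes are replicate numbers. Defb14 and Defb5 were highest in Alkali-burned replicates 2 and 3, Defb4 in SF/HA-HEP-PAM replicate 3, and Defb1 in Control replicates 2 and 3.

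Slpi (ENSRNOG00000046699, chromosome 3, 153082369 to 153084453, minus strand) had 1013, 1751 and 1769 FPKM in SF/HA-HEP-PAM, 1672, 4548 and 3297 FPKM in SF/HA, 2219.9, 1512 and 1512 FPKM in Alkali-burned and 245, 494 and 401 FPKM in Control. It took 0.211% to 0.369% of all reads on genes in SF/HA-HEP-PAM, 0.349% to 0.948% in SF/HA, 0.315% to 0.463% in Alkali-burned and 0.0510% to 0.103% in Control. Every library outside Control was above every Control library. The rise over Control was called in all 3 groups, at a log2 difference of 2 in SF/HA-HEP-PAM (SE 0.39, limma adjusted p = 0.00574), 3 in SF/HA (SE 0.39, adjusted p = 0.00185) and 2.23 in Alkali-burned (SE 0.39, adjusted p = 0.00803). Between SF/HA-HEP-PAM and SF/HA the difference was -1 (95% interval -1.86 to -0.13, adjusted p = 0.138), with overlapping libraries and no call.

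Transcripts of the serine proteases listed around Slpi were near absent: of 7 in the table, 3 had any read and none passed the filter. Protein was not measured, so whether the proteases themselves were present is not known. Of 18 tested secreted protease inhibitors other than Slpi, 5 rose and 1 fell after the burn, beside 4.42% and 1.28% of all tested genes. Their median log2 difference was 0.04, against 0.06 over all tested genes. Wfdc18, of the same whey acidic protein family as Slpi, rose by 3.86 (SE 0.96, limma adjusted p = 0.0326), with 21, 42.6 and 40.4 FPKM in Alkali-burned and 0, 1.32 and 4.61 FPKM in Control. Cst6, a cysteine protease inhibitor of epithelium, fell by 1.16, with 929, 943 and 771 FPKM in SF/HA-HEP-PAM, 1016, 621 and 806 in SF/HA, 851, 1323 and 1274 in Alkali-burned and 1547, 3668 and 2853 in Control. In SF/HA against burned corneas none of the 18 was called (median 0.03), beside 0.376% of all tested genes called higher and 2.06% lower. In SF/HA-HEP-PAM against burned corneas Spint1, an inhibitor of epithelial serine proteases, rose by 1.09 and A2m, a broad protease trap, fell by 1.24. Of all tested genes 7.38% rose and 3.71% fell there.

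Lcn2 (ENSRNOG00000013973, chromosome 3, 15680687 to 15684095, minus strand) had 58.0, 67.1 and 159 FPKM in SF/HA-HEP-PAM, 19.8, 161 and 40.4 FPKM in SF/HA, 41.8, 43.1 and 41.7 FPKM in Alkali-burned and 9.65, 15.9 and 18.8 FPKM in Control. The burned libraries differed by 1.91% of their mean (coefficient of variation), against 59.1% in SF/HA-HEP-PAM, 103% in SF/HA and 31.6% in Control. With 167, 186 and 173 reads, counting error alone would give the burned libraries a wider spread than that, so their closeness is not read as a trait of the group. Every SF/HA-HEP-PAM library was above every burned one, and every library outside Control was above every Control one. The log2 difference from Control was 2.5 in SF/HA-HEP-PAM (SE 0.64, limma adjusted p = 0.0196) and was called. It was 1.76 in SF/HA (SE 0.64, adjusted p = 0.137) and 1.5 in Alkali-burned (SE 0.64, adjusted p = 0.187), not called. The fit with only burned and Control libraries, whose error estimate draws on the close burned values, called the burn difference (1.5, SE 0.25, adjusted p = 0.0170). Without SF/HA-HEP-PAM replicate 3 the SF/HA-HEP-PAM difference was not called (adjusted p = 0.0771), nor without Control replicate 1 (adjusted p = 0.0548). The SF/HA difference was called without SF/HA replicate 1 (adjusted p = 0.0434) and the burn difference without SF/HA replicate 2 (adjusted p = 0.0470). The difference of SF/HA-HEP-PAM from burned corneas was 1 (95% interval -0.42 to 2.42, adjusted p = 0.297).

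Of 9 tested iron and lipocalin genes other than Lcn2, 1 rose after the burn, beside 4.42% of all tested genes. It was Apod, a lipocalin that carries small lipids, which rose by 2.5 on the log2 scale. Apod had 374, 322 and 186 FPKM in SF/HA-HEP-PAM, 791, 636 and 829 in SF/HA, 939, 569.7 and 599 in Alkali-burned and 194, 88.3 and 102 in Control. It fell in SF/HA-HEP-PAM by 1.28 against burned corneas and by 1.40 against SF/HA. Ptgds, a lipocalin that also makes prostaglandin D2, fell by 1.87 in SF/HA-HEP-PAM against burned corneas, where all levels were under 6 FPKM.

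Chi3l1 (ENSRNOG00000053272, chromosome 13, 45641802 to 45649787, plus strand) had 35.1, 41.9 and 34.9 FPKM in SF/HA-HEP-PAM, 73.5, 91.6 and 82.0 FPKM in SF/HA, 80.8, 39.5 and 36.0 FPKM in Alkali-burned and 6.70, 5.09 and 6.41 FPKM in Control. The SF/HA libraries were all above the SF/HA-HEP-PAM ones, and the burned group held both levels, with replicate 1 near SF/HA and the other burned libraries near SF/HA-HEP-PAM. Against Control it rose by 2.44 in SF/HA-HEP-PAM (SE 0.27, limma adjusted p = 0.000346), 3.56 in SF/HA (SE 0.27, adjusted p = 9.1e-05) and 2.82 in Alkali-burned (SE 0.27, adjusted p = 0.000275), each in 3 of 3 libraries. Between SF/HA-HEP-PAM, at 37.3 ± 4.02 FPKM, and SF/HA, at 82.4 ± 9.05 FPKM (SD, n = 3 each), the log2 difference was -1.12 (95% interval -1.71 to -0.53, adjusted p = 0.0298). That call was lost when any 1 of the 6 compared libraries was left out, with adjusted p up to 0.1 and log2 differences from -1.21 to -1.04 over all 12 such fits. Stromal markers moved with it: summed over 11 genes they were 22464, 20878 and 12839 RPM in SF/HA-HEP-PAM and 38521, 36132 and 39316 RPM in SF/HA, all SF/HA-HEP-PAM libraries below all SF/HA ones. At most 1 of the 11 was at 0 in a library. Of 9 tested 2 fell, the matrix proteoglycans Lum (-1.11) and Dcn (-1.21), beside 0.524% of all tested genes. The median was -0.87 against 0.13 over all tested genes, and the part of stromal markers in the Chi3l1 difference was not tested. SF/HA against burned gave 0.74 (adjusted p = 0.188), and 1.1 (adjusted p = 0.00811) without Alkali-burned replicate 1. SF/HA-HEP-PAM against burned gave -0.38 (95% interval -0.97 to 0.21, adjusted p = 0.340). Of 5 tested chitinase-like genes and receptors of Chi3l1, none was called in any of the 6 comparisons.

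Clu (ENSRNOG00000016460, chromosome 15, 40174617 to 40200315, plus strand) had 26.9, 38.2 and 25.2 FPKM in SF/HA-HEP-PAM, 32.5, 34.1 and 44.3 FPKM in SF/HA, 53.1, 30.6 and 32.8 FPKM in Alkali-burned and 5.92, 4.17 and 3.98 FPKM in Control. The 9 libraries outside Control overlapped one another and all lay above the highest Control library. The rise over Control was 2.44 in SF/HA-HEP-PAM (SE 0.25, limma adjusted p = 0.000295), 2.74 in SF/HA (SE 0.25, adjusted p = 0.000262) and 2.78 in Alkali-burned (SE 0.25, adjusted p = 0.000197). The differences from burned corneas were -0.34 in SF/HA-HEP-PAM (95% interval -0.89 to 0.21) and -0.04 in SF/HA (95% interval -0.59 to 0.51). Of 11 tested extracellular chaperones and clusterin receptors, 4 rose after the burn (median 0.85), beside 4.42% of all tested genes, and 3 fell in SF/HA-HEP-PAM against burned corneas (median -0.54), beside 3.71%. Stromal markers also had a negative median in the second comparison (-0.79, 2 of 9 called lower, Vim and Ptgds), at 22464, 20878 and 12839 RPM in SF/HA-HEP-PAM and 37493, 28677 and 29287 RPM in Alkali-burned; their part in these falls was not tested. Sod3, an antioxidant enzyme of the matrix, rose by 1.22 after the burn and fell by 1.27 in SF/HA-HEP-PAM against burned corneas; the other 2 that fell were Apod and A2m.

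**Figure D3:**
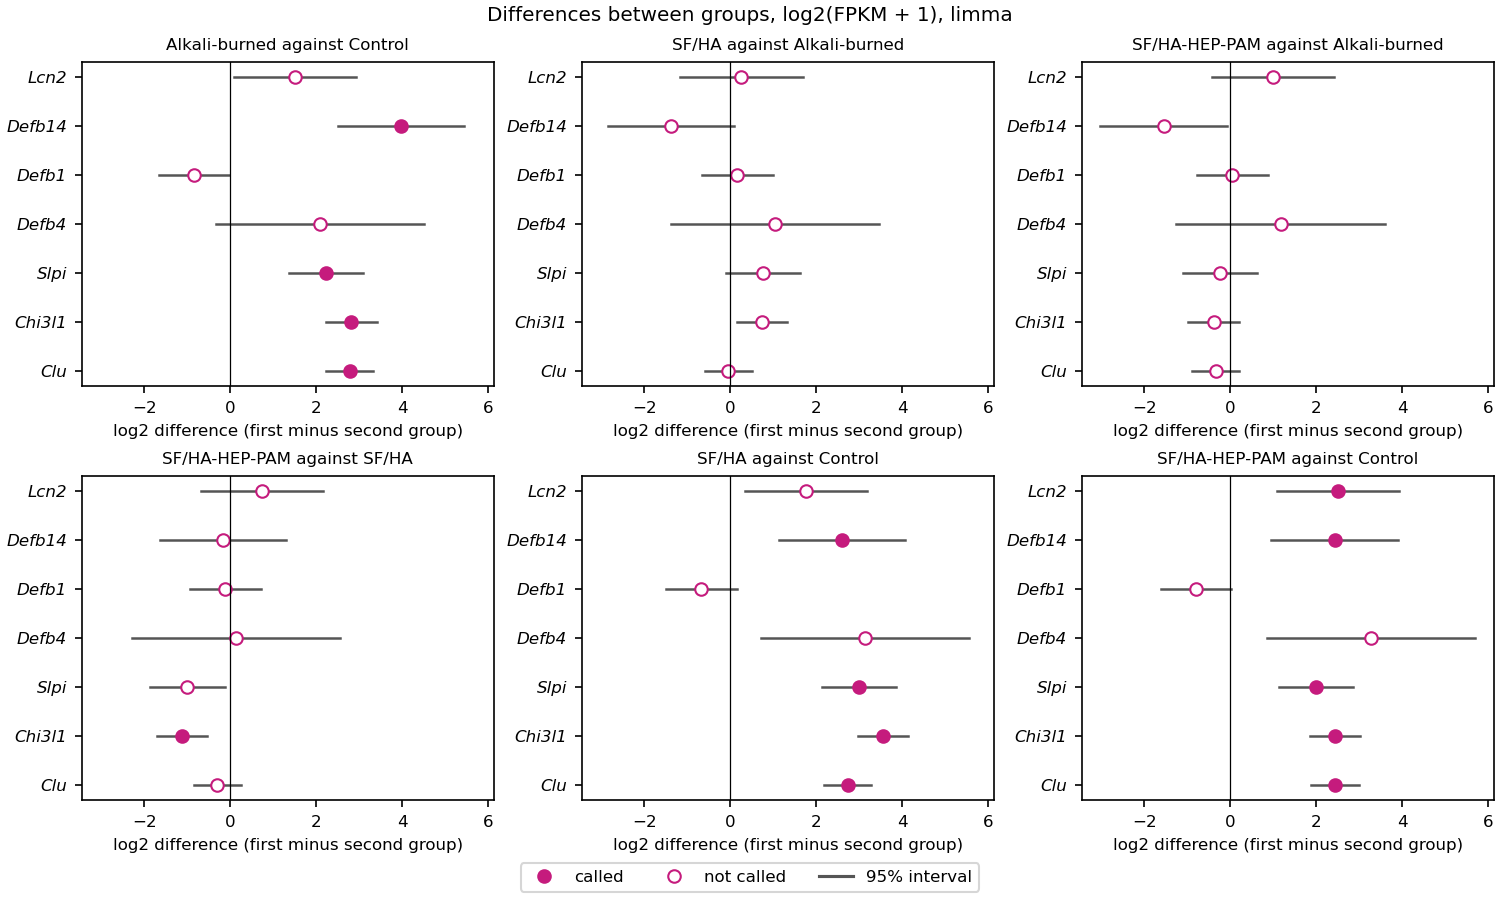
Log2 differences, first-named minus second-named group, of the 7 genes in the 6 comparisons, with 95% intervals from limma; filled points were called. The comparisons with Control hold 13 of the 14 filled points, and the other is Chi3l1 in SF/HA-HEP-PAM against SF/HA.

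In counts, 4 of 7 genes were called higher and 0 lower in Alkali-burned against Control, where 4.42% of all 6112 tested genes were called higher and 1.28% lower. In SF/HA against Control 4 were called higher and 0 lower, beside 3.19% and 1.37% of tested genes. For SF/HA-HEP-PAM against Control 5 were called higher and 0 lower, beside 9.21% and 2.39%. These 3 comparisons share the Control libraries, and the 7 genes were chosen with earlier results of these data known. In each, 6 of the 7 had all libraries above all Control ones, as did 19.1% of tested genes in the burned, 12.9% in the SF/HA and 27.2% in the SF/HA-HEP-PAM comparison. Defb4, among these 6, passed the filter on low values only through libraries outside Control, which favours that outcome. The median log2 difference of the 7 was 2.23 in burned, 2.74 in SF/HA and 2.44 in SF/HA-HEP-PAM corneas, against medians of 0.06, 0.00 and 0.14 over all tested genes. Quantile normalization moved the median of all tested genes in SF/HA-HEP-PAM against Control to -0.11. After it the genes called higher and lower numbered 198 and 115 in place of 270 and 78 in burned against Control, and 385 and 283 in place of 563 and 146 in SF/HA-HEP-PAM against Control. In SF/HA-HEP-PAM they numbered 385 and 314 in place of 451 and 227 against burned corneas, and 172 and 71 in place of 235 and 32 against SF/HA.

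Between patch groups and burned corneas, which share the burned libraries, 0 of the 7 were called. At an unadjusted p below 0.05 limma passed 1 in SF/HA against burned, Chi3l1, beside 16.6% of all tested genes, and 1 in SF/HA-HEP-PAM against burned, Defb14, beside 35.7%. By voom on recovered reads 0 and 1 were called. Of all tested genes 0.376% were called higher and 2.06% lower in SF/HA against burned, and 7.38% and 3.71% in SF/HA-HEP-PAM against burned, so a count of 0 in 7 lies near the background. Non-overlap was seen for Defb14 (lower in SF/HA, beside 13.4% of genes) and Lcn2 (higher in SF/HA-HEP-PAM, beside 26.2%). Between SF/HA-HEP-PAM and SF/HA 1 of 7 was called lower in SF/HA-HEP-PAM, Chi3l1, beside 0.524% of tested genes, and 0 higher, beside 3.84%; Chi3l1 was also the one gene without overlap, lower, as were 9.69% of tested genes. In limma's F-test over the 4 groups, 4 of 7 passed an adjusted p below 0.05, Defb14, Slpi, Chi3l1 and Clu, beside 26.7% of tested genes.

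The 7 genes fell into different patterns within groups. Defb4 and Slpi were both the highest of their group in SF/HA-HEP-PAM replicate 3, SF/HA replicate 2 and Alkali-burned replicate 1, the 3 libraries highest in S100a8 and S100a9. Their deviations from the group mean in these were 2.35, 1.58 and 1.61 for Defb4 and 0.27, 0.64 and 0.37 for Slpi on the log2 scale; in SF/HA-HEP-PAM Slpi deviated by 0.26 in replicate 2 as well. Lcn2 deviated by 0.89, 1.64 and -0.01 and Defb14 by 1.49, 0.83 and -0.14 in the same libraries, so both were highest there in the patch groups and not in the burned group. Chi3l1 deviated by -0.09, 0.16 and 0.72 and Clu by -0.22, -0.10 and 0.48. Among neutrophil genes, the granule genes Mpo and Ltf and the secreted Retnlg had 0 reads in all 12 libraries. Il1r2, a decoy receptor for interleukin-1, had 48, 121 and 95 reads in SF/HA-HEP-PAM, 31, 72 and 49 in SF/HA, 37, 23 and 20 in Alkali-burned and 1, 4 and 4 in Control. Trem1, a receptor of myeloid cells, had 13, 21 and 24 reads in SF/HA-HEP-PAM, 4, 20 and 11 in SF/HA, 7, 3 and 2 in Alkali-burned and 0, 0 and 2 in Control. The receptors Csf3r and Cxcr2 had 0 to 9 reads in the libraries outside Control and 0 in all Control ones. Of 4 neutrophil genes tested, 2 rose over Control in SF/HA-HEP-PAM (S100a9 and Il1r2), 1 in SF/HA (Il1r2) and 0 in Alkali-burned, where S100a9 passed an unadjusted p below 0.05 (0.0232) in limma. The shares of all tested genes called higher were 9.21%, 3.19% and 4.42% in the same order. Neutrophil markers other than S100a8 and S100a9 summed to 80.3, 84.1 and 125 RPM in SF/HA-HEP-PAM, 61.4, 226 and 79.4 in SF/HA, 43.5, 26.1 and 24.6 in Alkali-burned and 6.17, 6.77 and 9.84 in Control. Of the 17 neutrophil genes, 4 to 13 were at 0 in a library, and their part in the values of the 7 genes was not tested.

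**Figure D4:**
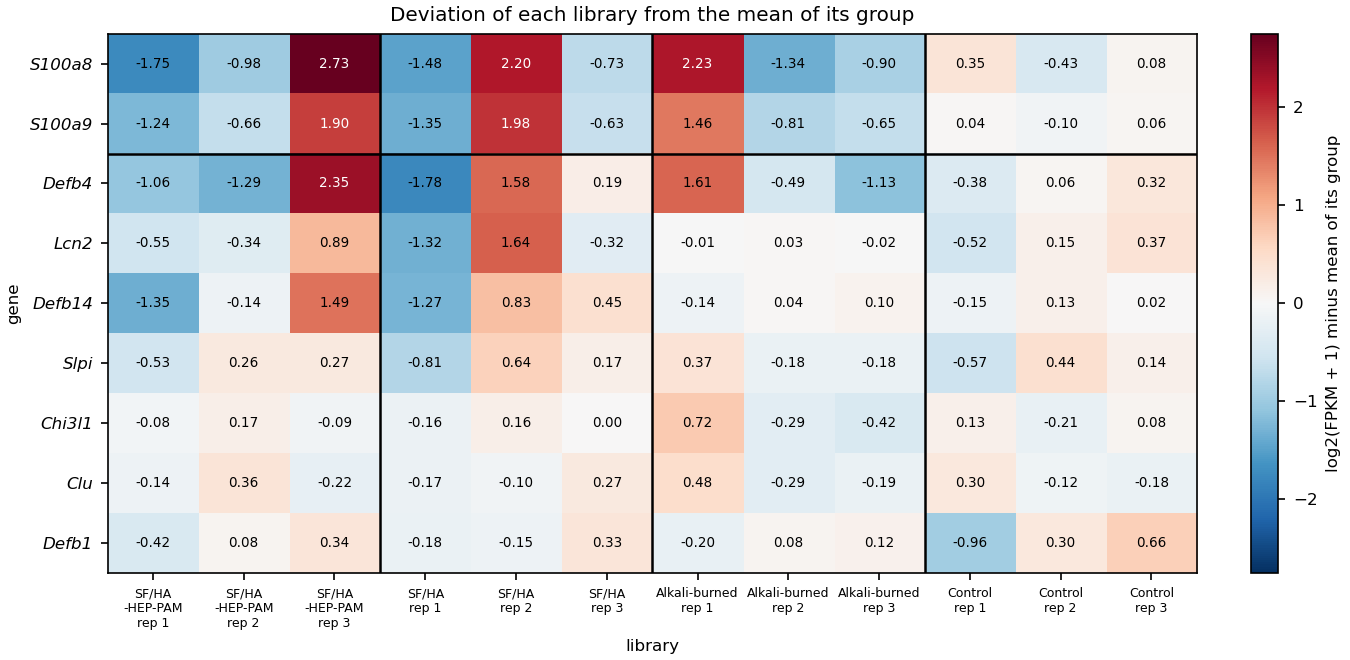
Deviation of each library from its group mean, log2(FPKM + 1), for the 7 genes and, above the line, S100a8 and S100a9; red is above and blue below the mean. Defb4 is above its mean in the same 3 libraries as S100a8 and S100a9, as is Slpi by smaller amounts, while Chi3l1 and Clu stay within 0.72 of theirs.

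Without those 3 libraries 4 genes were called higher in burned against Control, 3 in SF/HA against Control and 5 in SF/HA-HEP-PAM against Control. The background shares given above belong to the fit of all 12 libraries. None is given for this smaller fit, so its counts are descriptions only. Defb14 was then not called against Control in SF/HA-HEP-PAM (1.69, limma adjusted p = 0.0746) or SF/HA (2.18, adjusted p = 0.0669), and Defb4 was called in SF/HA-HEP-PAM (2.10, adjusted p = 0.0437). Against burned corneas Defb14 was called lower in SF/HA-HEP-PAM (-2.36, adjusted p = 0.0407) and Chi3l1 higher in SF/HA (1.02, adjusted p = 0.0390). Leaving these libraries out lowers the spread of genes that follow S100a8 and S100a9 by construction. Summed macrophage markers (13 genes, 0 to 4 of them at 0 in a library) were 830.3 to 899 RPM in SF/HA-HEP-PAM, 855 to 1912 in SF/HA, 857 to 1034 in Alkali-burned and 255 to 282 in Control, and their part in the Chi3l1 and Clu levels was not tested.

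Among all tested genes with a mean of at least 5 FPKM, those whose centred log2(FPKM + 1) values over the 12 libraries lay nearest to each of the 7 differed from gene to gene. Nearest to Defb4 were S100a9, S100a8 and the chemokine Cxcl6, with a mean absolute difference of 0.40, 0.56 and 0.63. Nearest to Lcn2 were the cystatin-family gene Stfa2 (0.35), the epidermal protein Sbsn (0.37) and Ndufa4l2 (0.38). Nearest to Defb14 were S100a6 (0.47), the cornification gene Crct1 (0.50) and Defb5 of the same chromosome stretch (0.52). Nearest to Slpi were the chemokine Cxcl1 (0.25), the cytokine Il6 (0.29) and the mitochondrial antioxidant enzyme Sod2 (0.31). Chi3l1 lay nearest to the protease inhibitors Timp1 (0.14) and Serping1 (0.18) and the protease Mmp3 (0.20), and Clu to Serping1 (0.19), Mmp3 (0.23) and the complement protease C1s (0.26). The group means of Defb1 ranged over 0.84, under the limit of 1 set for this measure. These are descriptions over 12 libraries with 4 group levels, with no test.

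**Figure D5:**
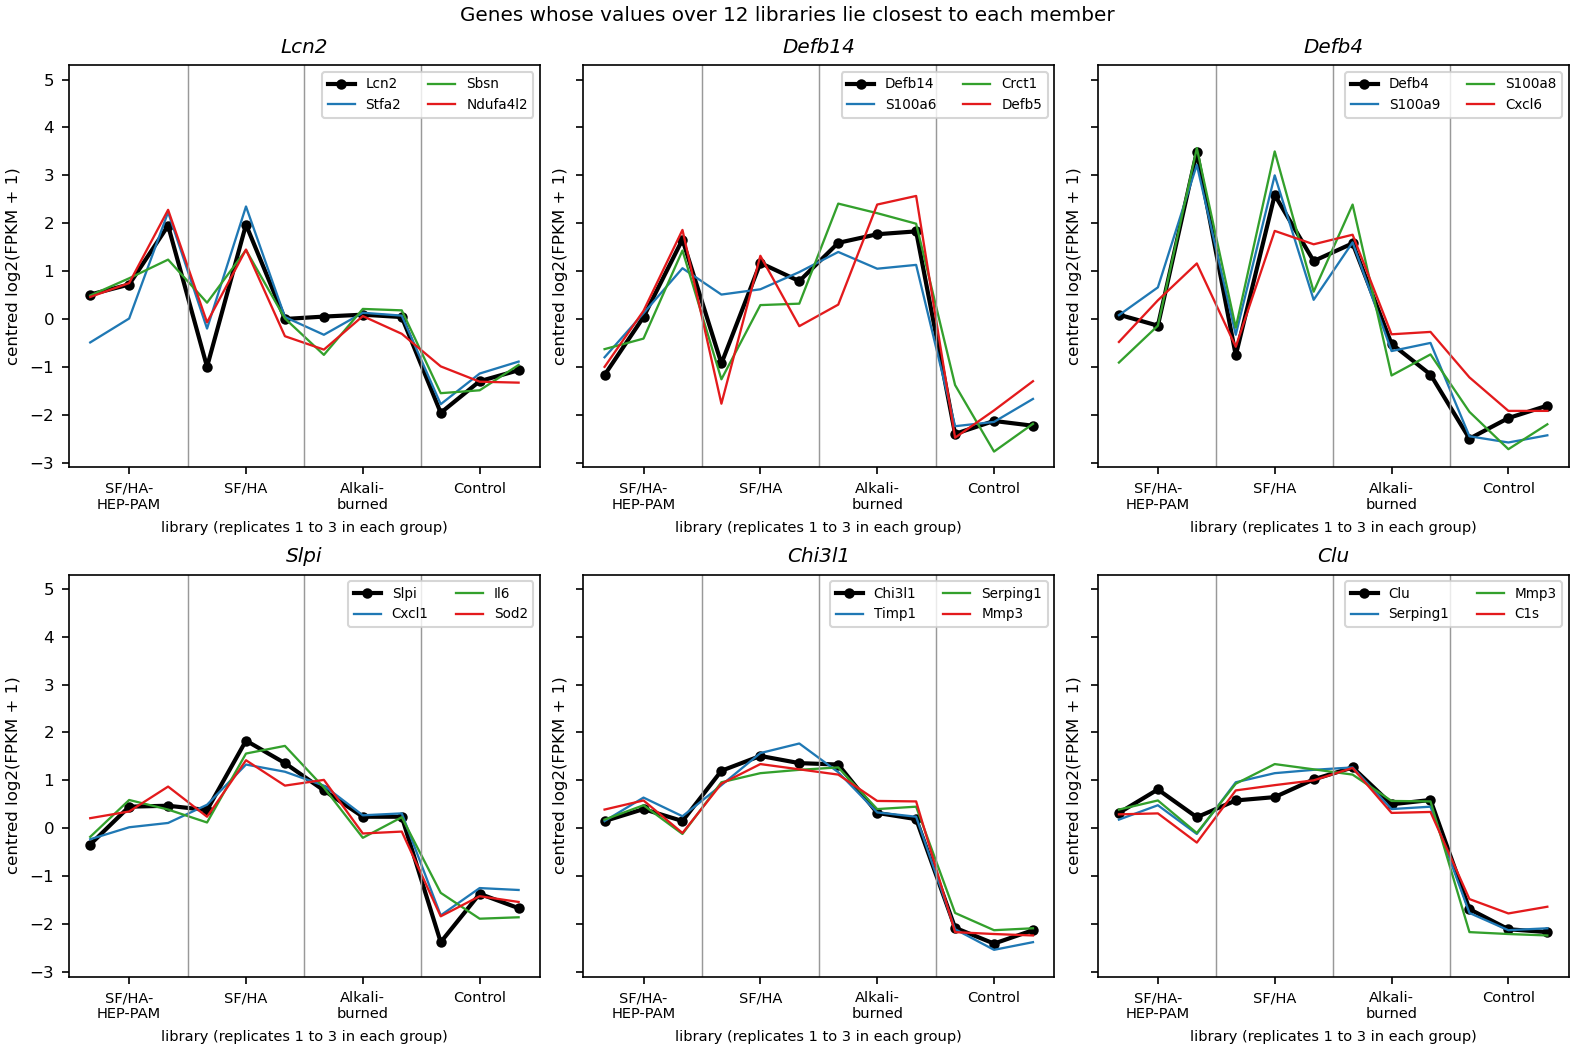
Log2(FPKM + 1), centred on each gene's own mean, over the 12 libraries in group order, for 6 of the genes (black) and the 3 genes nearest to each (colours). Defb4, Lcn2 and their neighbours are highest in the same library of each patch group, with less marked peaks in Sbsn and Cxcl6. Chi3l1 and Clu lie lowest in Control, and within Alkali-burned both are highest in replicate 1. Neighbours were picked over these same libraries, so their likeness is built in.

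Timp1, nearest to Chi3l1, had 75.1, 105 and 80.4 FPKM in SF/HA-HEP-PAM, 127, 203 and 233 in SF/HA, 154, 84.9 and 79.8 in Alkali-burned and 14.9, 10.8 and 12.2 in Control. It was called lower in SF/HA-HEP-PAM against SF/HA (-1.07, SE 0.29, limma adjusted p = 0.0483). Cxcl1, nearest to Slpi, was called lower in the same comparison (-1.03, SE 0.25, adjusted p = 0.0340). Both genes were picked for nearness over these same libraries, so their calls are no separate support for Chi3l1 or Slpi.

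Other antimicrobial genes did not move as 1 group. Of 12 tested, 2 rose and 2 fell after the burn, beside 4.42% and 1.28% of all tested genes. The median log2 difference of the 12 was 1.19, against 0.06 over all tested genes. The risers were S100a7a, an antimicrobial protein of epithelium (3.98), and the lysozyme Lyz2 (2.64), and those that fell were Cxcl14 (-1.97) and Pla2g2a (-4.54). Pla2g2a, a secreted phospholipase that acts on Gram-positive bacteria, had 57.8, 26.4 and 21.8 FPKM in SF/HA-HEP-PAM, 67.5, 59.2 and 28.4 in SF/HA, 33.8, 39.3 and 40.5 in Alkali-burned and 1694, 425 and 1005 in Control, the highest being the Control library high in stromal markers. In SF/HA against burned corneas 1 rose and 1 fell, the chemokine Ccl20 (1.76), a ligand of the receptor Ccr6 that beta-defensins also bind, and S100a7a (-2.11). Of all tested genes 0.376% rose and 2.06% fell there. The SF/HA-HEP-PAM corneas had 0 rises and 1 fall against burned ones, S100a7a (-1.86), beside 7.38% and 3.71% of all tested genes. Cxcl14, an antimicrobial chemokine of resting epithelium, had 7.08, 6.15 and 6.04 FPKM in SF/HA-HEP-PAM, 10.6, 9.57 and 12.1 in SF/HA, 11.8, 4.92 and 8.21 in Alkali-burned and 31.6, 36.6 and 33.1 in Control. Against Control, 3 rose and 2 fell in SF/HA, beside 3.19% and 1.37% of all tested genes. In SF/HA-HEP-PAM 4 rose and 2 fell, beside 9.21% and 2.39%.

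Of 24 tested genes known to induce epithelial antimicrobial proteins or to carry their signals, 2 rose after the burn, Il6 and Tnf. The share over all tested genes was 4.42%. Il17rc, a chain of the interleukin-17 receptor, had 15.4, 8.58 and 6.97 FPKM in SF/HA-HEP-PAM, 3.97, 3.87 and 4.03 in SF/HA, 1.51, 1.91 and 1.72 in Alkali-burned and 1.98, 3.27 and 3.64 in Control. All SF/HA-HEP-PAM libraries were above all others, with a rise of 2 against burned corneas (SE 0.25, limma adjusted p = 0.000584), 1.12 against SF/HA and 1.47 against Control. Cebpb, a transcription factor that acts at C/EBP motifs, had 1186, 1653 and 985 FPKM in SF/HA-HEP-PAM, 1002, 1196 and 1021 in SF/HA, 489, 370.4 and 371 in Alkali-burned and 287, 477 and 564 in Control. It rose against burned corneas by 1.61 in SF/HA-HEP-PAM and by 1.39 in SF/HA. Tnf, a cytokine that induces Lcn2 and defensins in epithelium, fell against burned corneas by 1.63 in SF/HA-HEP-PAM and by 1.92 in SF/HA. Against Control, 9 of the 24 rose in SF/HA-HEP-PAM, beside 9.21% of all tested genes, and 6 in SF/HA, beside 3.19%, with 0 called lower. Of 9 genes listed around beta-defensin receptors, 3 were tested, Tlr2, Cd14 and Ly96. The receptor Ccr6 had at most 1 read in a library and was not tested. After the burn 1 of the 3 rose, Cd14 (1.37), beside 4.42% of all tested genes. Cd14 was also among the macrophage markers, of which 8 of 9 tested rose after the burn. None of the 3 was called between patch groups and burned corneas.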

How the data were processed

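RNA from 12 rat cornea samples was primed with barcoded poly(dT) primers carrying molecular identifiers, per the labels' protocols. The authors deposited FPKM values per gene and library. Per the series text, fastp trimmed the reads and HTSeq-count counted them; the submitters' processing notes name bcl2fastq, STAR, featureCounts, DESeq2 and the build mRatBN7.2. Neither source says whether identifiers were collapsed or strand was used. The table's length equals the whole gene span for all 30452 genes, and FPKM times length gave whole reads in 100.0% of values (tolerance 0.01), which set the depth. A further 108 lines named no gene and held no value above 0.

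The limma test (3.58.1, R 4.3.3) used log2(FPKM + 1) of 6112 genes, those reaching 1 FPKM in 3 or more libraries, with a variance trend and a mean for each of the 4 groups fitted to all 12 libraries; 95% intervals come from that fit. Folds are on this scale and understate the change of low genes. A count of 0 allows up to 3 reads; such floors and read-ratio intervals cover counting error only. The 7 genes, the 9 companion lists (254 of 288 genes in the table), the markers and the tests were chosen with earlier results of these data known. Genes named from a list are, with the exceptions below, among its 4 called genes of largest difference in at least 1 comparison. Not all such genes are named. The neutrophil genes S100a8, Trem1, Csf3r, Cxcr2, Mpo, Ltf and Retnlg were named without a call, as were Tlr2, Ly96 and Ccr6. Reg3g and Defb52 were named after their values were seen. Nearness was the mean absolute difference of centred values. Alternatives were pseudocounts of 0.1 and 5, other filters, 2 scalings, library weights, voom on reads recovered from FPKM (8653 genes), a replicate block, fits of the compared libraries alone, and leaving out each library. Leaving out the 3 libraries highest in S100a8 and S100a9 was chosen after seeing the data. The method was tested on simulated data. Figures used Python 3.11.15 and matplotlib 3.10.9.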

Additional observations from a re-analysis of the deposited data

Results flagged for a closer look

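Chi3l1 differed between the patch groups: its level in SF/HA-HEP-PAM corneas, 35.1, 41.9 and 34.9 FPKM, lay below that in SF/HA corneas, 73.5, 91.6 and 82.0 FPKM. The log2 difference was -1.12 (SE 0.27, limma adjusted p = 0.0298), lower in 3 of 3 libraries. That call was lost when any 1 of the 6 compared libraries was left out, with adjusted p up to 0.1. It was also lost with no filter on low values (adjusted p = 0.0562) and without the 3 libraries highest in S100a8 and S100a9. Summed stromal markers were also lower, at 12839 to 22464 RPM in SF/HA-HEP-PAM and 36132 to 39316 RPM in SF/HA, and their part in the difference was not tested. It is listed because the test of the difference between both patch groups passed the threshold, which is the same as the test of how far each lies from the burned corneas they share.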

How the results depend on the processing

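Of 960 values of single genes under an alternative, 878 kept direction and side of the threshold, 32 lost a call, 22 gained one and 28 changed sign, none of the 28 called. The rises of Defb14, Slpi, Chi3l1 and Clu after the burn were called in every alternative run. With replicate number as a block the genes called numbered 4, 0, 0, 1, 4 and 5 in the 6 comparisons, taken as burned against Control, SF/HA and then SF/HA-HEP-PAM against burned, SF/HA-HEP-PAM against SF/HA, and SF/HA and then SF/HA-HEP-PAM against Control, the same numbers as without the block; same-numbered libraries did not deviate together (median correlation 0.0045 over 18 pairs, against -0.016 over 36 pairs of different number), and 4 of 12 libraries correlated best with their own number.

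The count of the 7 genes called moved by over 1.5 times in these cases, and the cause was not tested. In SF/HA against burned corneas it was 0 to 1 over fits without 1 library and 1 without the 3 libraries highest in S100a8 and S100a9 (Chi3l1). For SF/HA-HEP-PAM against burned corneas it was 0 to 1 without 1 library, and 1 with library weights, with voom and without those 3 libraries (Defb14, lower). Between SF/HA-HEP-PAM and SF/HA it was 0 to 1 without 1 library, and 0 with no filter (adjusted p = 0.0562 for Chi3l1). It was also 0 without those 3 libraries, where Chi3l1 (-1, adjusted p = 0.0332) missed the log2 limit alone. For SF/HA-HEP-PAM against Control it was 3 to 6 without 1 library and 3 with no filter. Defb14 in SF/HA against Control was not called with a pseudocount of 5 (adjusted p = 0.0567), no filter (0.12), median-of-ratios scaling or quantile normalization (0.0534 and 0.0546). Defb4 against Control was called with a pseudocount of 0.1 in SF/HA-HEP-PAM (5.12, adjusted p = 0.0207) and SF/HA (4.97, 0.048), and in SF/HA-HEP-PAM at 5 FPKM or more (3.27, 0.0431). Smaller moves of the count were 4 to 5 in burned against Control, with Lcn2 added by the compared libraries alone (adjusted p = 0.017) or without SF/HA replicate 2 and Defb1 by library weights (0.00733) or without Control replicate 1, and 3 to 5 in SF/HA against Control, with Defb1 added by weights (0.0449) and Lcn2 without SF/HA replicate 1 (0.0434).

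Signs of uncalled differences changed as follows. Clu in SF/HA against burned was 0.01 with median-of-ratios scaling, 0.10 with quantile normalization, 0.13 with library weights, 0.25 without the 3 libraries and -0.18 to 0.20 without 1 library. Lcn2 there was -0.16 with weights, -0.57 without the 3 libraries and -0.56 to 0.92 without 1 library, and Defb1 was 0 to 0.25 without 1 library. In SF/HA-HEP-PAM against burned, Defb1 was -0.11 with quantile normalization, 0 with weights, -0.22 without the 3 libraries and -0.12 to 0.26 without 1; Slpi was -0.37 to 0.03 without 1; Chi3l1 and Clu were both 0.02 without the 3. In SF/HA-HEP-PAM against SF/HA, Defb4 was -0.04 with quantile normalization, -0.25 without the 3 libraries and -1.04 to 0.92 without 1, Defb14 was -0.91 to 0.51 and Defb1 -0.28 to 0.10 without 1.

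Over all tested genes, voom gave 659, 238, 1903, 809, 421 and 1537 calls where the limma fit gave 348, 149, 678, 267, 279 and 709, in the order of comparisons above, and a pseudocount of 5 gave 188, 89, 336, 143, 139 and 345. With no filter 217 were called in burned against Control, 88 in SF/HA against burned and 174 in SF/HA against Control, the last being 172 with the compared libraries alone. In SF/HA-HEP-PAM against SF/HA 173 were called at 5 FPKM or more, 169 without the 3 libraries and as few as 149 without 1 library; SF/HA against burned fell to 75 without SF/HA replicate 2, and burned against Control to 230 without Alkali-burned replicate 3. Defb4 and Defb5, with 0 to 3 reads in Control libraries, are limited by depth. Defb1 had 17 to 141 reads per library. Its FPKM, taken over a span of 14742 bases, lies near the pseudocount, which shrinks its log2 differences.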

Other observations

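Values of 2 further antimicrobial genes are given here, both chosen after they were seen. Reg3g, a secreted lectin that acts on Gram-positive bacteria, had 7, 9 and 53 reads in SF/HA-HEP-PAM, 1, 18 and 8 in SF/HA, 0, 1 and 1 in Alkali-burned and 1, 0 and 0 in Control. Every patch-group library was at or above every other one in reads, which are not scaled for depth. In FPKM SF/HA replicate 1 (0.586) lay below Control replicate 1 (0.805), with 1 read in each. The 2 highest were SF/HA-HEP-PAM replicate 3 and SF/HA replicate 2, which were also highest in Defb4 FPKM. Its log2 difference from burned corneas was 2.10 in SF/HA-HEP-PAM (SE 0.84, limma adjusted p = 0.0984) and 1.96 in SF/HA (SE 0.84, adjusted p = 0.273), not called. Defb52, the beta-defensin gene beside Defb5, had 29 of its 31 reads in SF/HA-HEP-PAM replicate 1, 1 in SF/HA replicate 3 and 1 in Alkali-burned replicate 1; 1 library decides its level.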
